A study of Mus musculus with 6 samples.

Results

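Immunoglobulin variable (V) segments were read in RNA from mouse CD4 T cell samples, a cell type that does not assemble antibody genes. The members were all rows of the deposited table whose symbol, matched by Ensembl identifier, starts with Ighv, Igkv or Iglv. These were 348 of 54532 gene rows, of which 185 belong to the heavy chain locus (Ighv, chromosome 12), 160 to the kappa light chain locus (Igkv, chromosome 6) and 3 to the lambda light chain locus (Iglv, chromosome 16). The annotation calls 218 of them genes and 130 pseudogenes. The samples comprised 3 KO libraries (KO 1, KO 4 and KO 5), labelled iCD4-PRMT5 delta/delta, and 3 WT libraries (WT 1, WT 2 and WT 4), labelled iCD4-PRMT5fl/fl. All came from C57BL/6 animals and from spleen and lymph nodes. The promoter and agent behind the deletion, and the ages of the animals, were not given in the sources used here. Titles of all 6 samples carry the word rest, whereas their treatment label gives anti-CD3/CD28 for 48 h, so the activation state is uncertain and is shared by both genotypes. A code in the descriptions places KO 1, WT 1 and WT 2 in library series 22 and KO 4, KO 5 and WT 4 in series 24. Values are robust FPM, that is fragments assigned to a gene after scaling for library size, rounded to a step of 0.1.

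A V segment is the germline piece that encodes most of the variable domain of an antibody chain. In developing B cells the RAG recombinase joins a V segment of the heavy chain locus to D and J segments, and a V segment of a light chain locus to a J segment, so that a B cell and its offspring normally express a single heavy and a single light rearrangement. Plasma cells, the antibody-secreting end stage of this lineage, hold very large amounts of immunoglobulin mRNA, and spleen and lymph nodes contain both B cells and plasma cells. In mice the kappa light chain is the more common one in B cells and serum.

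The results turn on 9 segments, and the last 90 coding bases of each germline V exon are shown because they hold the end of the third framework region and the germline start of the third complementarity determining region that the joining step extends. They were taken from GENCODE M21 transcripts on GRCm38, all lie on the minus strand, and are written 5′ to 3′ along the transcript. The capitals run from the last in-frame cysteine codon, the conserved cysteine before that region, to the end of the segment. The first 3 are the segments of highest mean in each locus, and the other 6 were each high in a single library.
Ighv1-26 (chromosome 12, 114788372 to 114788461): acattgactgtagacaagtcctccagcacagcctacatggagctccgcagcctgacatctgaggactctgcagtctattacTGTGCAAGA
Igkv5-39 (chromosome 6, 69900424 to 69900513): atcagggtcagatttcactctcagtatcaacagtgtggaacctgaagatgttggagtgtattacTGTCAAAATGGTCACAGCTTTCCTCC
Iglv1 (chromosome 16, 19085017 to 19085106): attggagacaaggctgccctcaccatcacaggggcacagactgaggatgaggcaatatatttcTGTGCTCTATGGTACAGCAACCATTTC
Ighv1-4 (chromosome 12, 114487136 to 114487225): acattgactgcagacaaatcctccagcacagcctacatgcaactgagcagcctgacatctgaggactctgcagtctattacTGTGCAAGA
Ighv1-53 (chromosome 12, 115158403 to 115158492): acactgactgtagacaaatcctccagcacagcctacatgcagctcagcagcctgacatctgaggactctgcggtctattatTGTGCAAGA
Ighv1-78 (chromosome 12, 115868773 to 115868862): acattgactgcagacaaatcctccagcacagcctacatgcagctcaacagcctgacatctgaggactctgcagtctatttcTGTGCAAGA
Igkv4-61 (chromosome 6, 69416893 to 69416982): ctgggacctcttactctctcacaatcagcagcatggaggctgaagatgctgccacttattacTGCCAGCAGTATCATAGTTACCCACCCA
Igkv9-124 (chromosome 6, 67942074 to 67942163): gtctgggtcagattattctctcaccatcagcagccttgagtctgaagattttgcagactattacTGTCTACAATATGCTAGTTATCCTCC
Igkv19-93 (chromosome 6, 68736297 to 68736386): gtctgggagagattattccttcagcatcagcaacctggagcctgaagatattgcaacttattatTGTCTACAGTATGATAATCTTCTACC

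The 4 Ighv1 segments shown share the same germline end, and their bodies are alike as well, which bears on how fragments could be divided between copies. Over whole transcripts Ighv1-4 was 96.9% identical to its nearest other V segment, Ighv1-7, with 147 bases in an unbroken identical run, and Ighv1-26 was 96.9% identical to Ighv1-18. Iglv1 and Iglv2 were 97.0% identical. Of the other segments high in KO 5, Igkv4-61 was 96.9% identical to Igkv4-54 and Ighv1-53 was 96.3% identical to Ighv1-62. Igkv9-124 was 95.2% identical to Igkv9-120. Igkv19-93 had no near copy, its closest relative being Igkv10-94 at 78.5%. Igkv5-39 was 90.8% identical to Igkv5-45, and Ighv1-78 was 89.4% identical to Ighv1-77. The handling of fragments that match several copies was not given in the sources used here, so values of segments with a near copy are uncertain to that extent. Rearranged and mutated V sequences also differ from the germline, and their part in the values was not tested.

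Prmt5, the targeted gene, measured 24.4, 23.8 and 21.5 FPM in KO 1, KO 4 and KO 5, against 34.9, 41 and 43.9 FPM in WT 1, WT 2 and WT 4. The libraries carried the T cell genes of their label, with Cd4 between 388.8 and 465.0 and all 9 genes of the CD4 T cell list at 1 or more in every library. Transcripts of the B lineage were present beside them. Of 17 B cell markers, 7 reached 1 in every library, and the B cell receptor subunit gene Cd79a was one of 2 that stayed under 1 in all of them. Of 13 plasma cell genes, 9 reached 1 in every library, among them Xbp1 and Irf4, which activated T cells also express, and Jchain, which encodes the joining chain of polymeric IgM and IgA. The rest of that list did not, with Mzb1 at 0.7 to 2.9 FPM, Derl3 at 0.3 to 1.4 FPM, Fkbp11 at 0.3 to 1.3 FPM and Tnfrsf17 at 0.1 to 0.6 FPM. Which of the listed genes were expressed by other cells in these samples was not tested, so the count is no measure of plasma cells. WT 1 stood apart. It had 10.7 FPM over the 70 Ighv pseudogenes, against 0.2 to 1.5 in the other 5 libraries, and 0.295 FPM per kb over genes of olfactory and vomeronasal receptors, against 0.0141 to 0.0813. Results that rest on WT 1 are given with and without it. In these bulk samples, fewer cells of a type and less RNA per cell cannot be told apart.

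Summed over all 3 loci, V segments measured 177.2, 99.7 and 286.3 FPM in KO 1, KO 4 and KO 5, against 160.7, 195.0 and 148.2 FPM in WT 1, WT 2 and WT 4. This was between 0.0113% and 0.0334% of the values of all genes. The highest and the lowest sum were both in KO libraries, so the genotypes overlapped fully.

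The Ighv sum was 97.2, 54.1 and 159.2 FPM in KO 1, KO 4 and KO 5, against 86.8, 102.7 and 75.9 FPM in WT 1, WT 2 and WT 4. Its mean was 103.5 ± 52.8 FPM in KO and 88.5 ± 13.5 FPM in WT (SD, n = 3 each). The difference, KO minus WT averaged over the series, was 0.17 on the log2 scale, at 0.04 in series 22 and 0.29 in series 24, beside a spread within groups of 0.57. The Igkv sum was 57.5, 21.2 and 87.0 FPM in KO 1, KO 4 and KO 5, against 56.3, 62.2 and 43.7 FPM in WT 1, WT 2 and WT 4, a log2 difference of -0.03 with a spread of 0.76. The Iglv sum was 22.5, 24.4 and 40.1 FPM in KO 1, KO 4 and KO 5, against 17.6, 30.1 and 28.6 FPM in WT 1, WT 2 and WT 4, a log2 difference of 0.05 with a spread of 0.44. In each locus the difference between genotypes was smaller than the spread between replicates. No p is given for sums over the members.

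**Figure D1:**
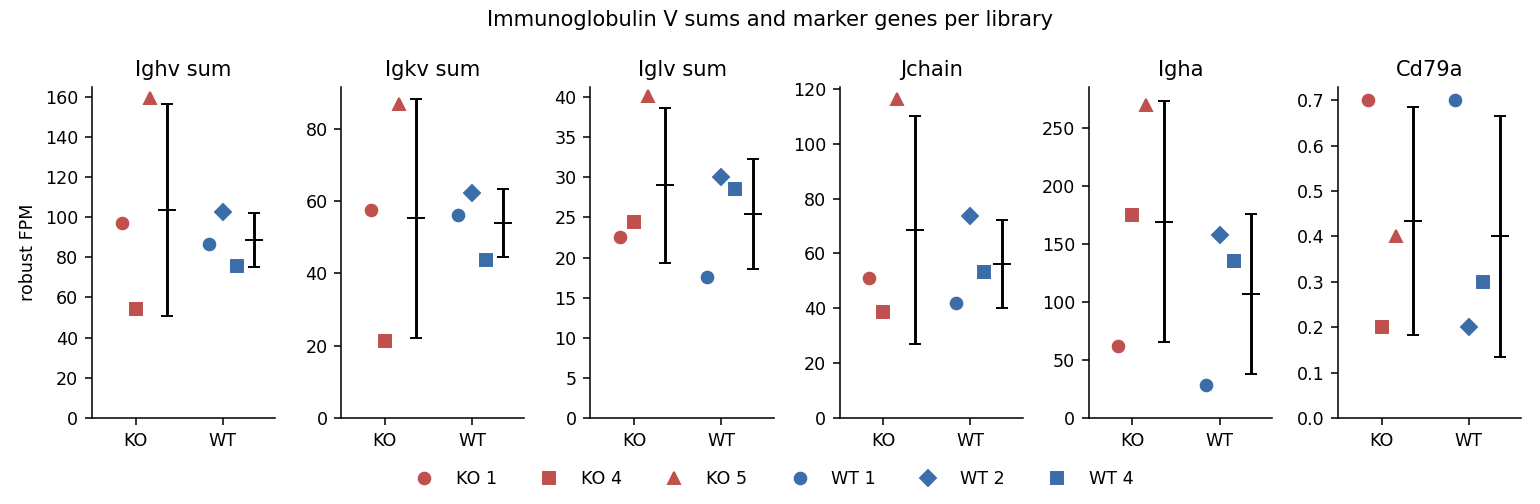
Robust FPM (y axis, from 0) per library for the sum of each V locus and for Jchain, Igha and Cd79a, with KO libraries left of WT libraries, and the mean and SD of each group (n = 3) in black. KO 5 is the highest library for all 3 V sums, Jchain and Igha, while Cd79a lies between 0.2 and 0.7 everywhere.

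V sums and Cd79a were on different scales and in different orders. Cd79a measured 0.7, 0.2 and 0.4 FPM in KO 1, KO 4 and KO 5, against 0.7, 0.2 and 0.3 FPM in WT 1, WT 2 and WT 4. These values are a few rounding steps above 0, so ratios to them are coarse. The Ighv sum was 124 to 514 times the Cd79a value over the 6 libraries, and the Igkv sum 80.4 to 311 times. WT 2 shared the lowest Cd79a value and had the second highest sum in all 3 loci, whereas KO 5, highest in all 3, came after KO 1 and WT 1 for Cd79a.

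The V sums were not tested against Cd79a. Single immunoglobulin genes did not follow Cd79a past the test. Cd79a values are coarse, with KO 1 tied with WT 1 and KO 4 with WT 2. No lack of relation is therefore read from the test. Over 6 libraries, Ighm against Cd79a gave Pearson's r = 0.63 (exact permutation p = 0.194, adjusted over 3 relations 0.583) and Spearman's rho = 0.41 (exact permutation p = 0.444, adjusted 0.667). Igkc gave r = 0.40 (exact permutation p = 0.450, adjusted 0.675) and rho = 0.47 (p = 0.356, adjusted 0.667). Jchain gave r = -0.16 (exact permutation p = 0.806, adjusted 0.806) and rho = -0.06 (p = 0.911, adjusted 0.911). Without KO 1 and WT 1, the 2 libraries farthest from the median of Cd79a, r was 0.72 for Ighm, 0.71 for Igkc and 0.71 for Jchain over 4 libraries, so that the sign for Jchain rests on those libraries. A series holds 3 libraries, too few for a value within it.

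Jchain, Ighm, Igha, Igkc and Iglc1 were above Cd79a in every library, while Ighe, the constant gene of IgE, was at 0 to 0.2 FPM. Jchain measured 51.1, 38.7 and 116.1 FPM in KO 1, KO 4 and KO 5, against 41.9, 73.6 and 53.3 FPM in WT 1, WT 2 and WT 4. Its highest, second highest and lowest libraries (KO 5, WT 2 and KO 4) were also those of the Ighv and Igkv sums. The Ighv sum was 1.37 to 2.07 times the Jchain value, a narrower range than for Cd79a. The other plasma cell genes covered a wide range. Xbp1 lay at 46.1 to 73.3 FPM, Txndc5 at 31.9 to 64.5 FPM and Irf4 at 22.4 to 35.9 FPM, whereas Mzb1 lay at 0.7 to 2.9 FPM and the B cell maturation antigen gene Tnfrsf17 at 0.1 to 0.6 FPM. Markers of other cells moved as well. Csf1r, a receptor of macrophages, measured 119.2, 115.6 and 227.9 FPM in KO 1, KO 4 and KO 5, against 50.3, 77.4 and 173.3 FPM in WT 1, WT 2 and WT 4, and so was also highest in KO 5. Its part in the V values was not tested.

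Heavy and light chain V segments kept close proportions to each other. The Ighv sum was 1.21, 1.19 and 1.25 times the light chain V sum in KO 1, KO 4 and KO 5, against 1.17, 1.11 and 1.05 times in WT 1, WT 2 and WT 4. All 3 ratios in KO were above those in WT with KO 4 and WT 1 close to each other. In the kappa locus the V sum was 1.70, 1.56 and 1.73 times Igkc, the kappa constant gene, in KO 1, KO 4 and KO 5, against 1.93, 1.86 and 1.68 times in WT 1, WT 2 and WT 4. Iglv1 was 0.636, 0.565 and 0.660 times Iglc1, the lambda 1 constant gene, in KO 1, KO 4 and KO 5, against 0.689, 0.582 and 0.623 times in WT 1, WT 2 and WT 4. The light chain V values thus went with their own constant genes in every library, over a range of Igkc from 13.6 to 50.2 FPM and of Iglc1 from 16.7 to 52.0 FPM.

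**Figure D2:**
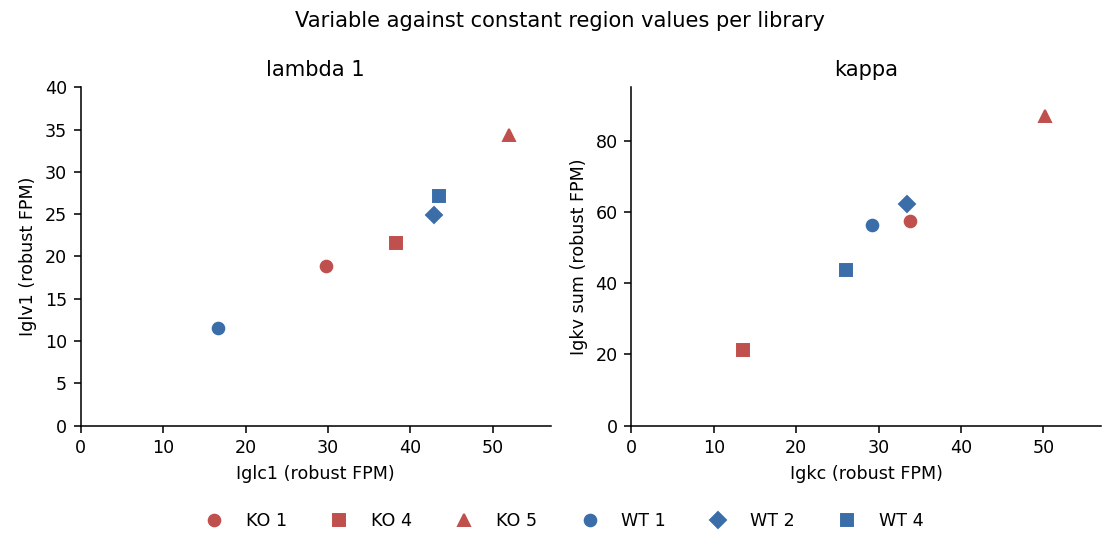
Iglv1 against Iglc1 (left) and the Igkv sum against Igkc (right), in robust FPM, 1 point per library, KO in red and WT in blue. Points lie near a line through 0 in both panels, with KO 5 highest on all 4 axes, WT 1 lowest for lambda 1 and KO 4 lowest for kappa.

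The balance of lambda and kappa differed between V segments and constant genes. Lambda was below kappa among V segments in every library but KO 4. Among constant genes, with Iglc1, Iglc2 and Iglc3 summed against Igkc, it was above kappa in every library but WT 1. Lambda took 28.1%, 53.5% and 31.5% of the light chain V sum in KO 1, KO 4 and KO 5, against 23.8%, 32.6% and 39.6% in WT 1, WT 2 and WT 4. Of the light chain constant gene sum it took 53.1%, 75.7% and 56.5% in KO 1, KO 4 and KO 5, against 48.5%, 61.5% and 64.9% in WT 1, WT 2 and WT 4. Per kb of exon, Iglc1 averaged 81.8 FPM over the 6 libraries and Igkc 58.4 FPM. KO 4 had the highest lambda share on both measures. Its kappa values were the lowest of all libraries, while its Iglv sum of 24.4 FPM lay inside the WT range.

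Iglv1 was the segment of highest mean among all 348. It measured 18.9, 21.6 and 34.3 FPM in KO 1, KO 4 and KO 5, against 11.5, 24.9 and 27.1 FPM in WT 1, WT 2 and WT 4. It made up 84.0%, 88.5% and 85.5% of the Iglv sum in KO 1, KO 4 and KO 5, against 65.3%, 82.7% and 94.8% in WT 1, WT 2 and WT 4. Iglv2, its near copy, ranged from 2.5 to 4.7 FPM in KO and from 1.2 to 5.0 FPM in WT. Iglv3 ranged from 0.3 to 1.1 FPM in KO and over the same values in WT. Iglv1 did not differ between genotypes past the test (log2 change 0.08, SE 0.300, 95% interval -0.62 to 0.77, limma adjusted p = 1), and its sign turned with ERCC scaling.

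Heavy chain usage, the share of each segment in the Ighv sum of a library, was led by members of the Ighv1 family, the large J558 group. The family held 55.3%, 49.4% and 59.5% of the sum in KO 1, KO 4 and KO 5, against 38.0%, 53.3% and 50.9% in WT 1, WT 2 and WT 4. Ighv1-26 was the heavy chain segment of highest mean and was present throughout, at 10, 9.9 and 14.1 FPM in KO 1, KO 4 and KO 5, against 3.1, 12 and 10.5 FPM in WT 1, WT 2 and WT 4. Its usage was 10.3%, 18.3% and 8.86% in KO 1, KO 4 and KO 5, against 3.57%, 11.7% and 13.8% in WT 1, WT 2 and WT 4. It led usage in KO 4, WT 2 and WT 4. In KO 1 the leading segment was Ighv1-4 at 17.7%, in KO 5 Ighv1-78 at 12.7%, and in WT 1 Ighv6-3 at 4.72%.

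Ighv1-26 and Iglv1 were the heavy and light chain segments of highest mean, and both had their highest value in KO 5 and their lowest in WT 1. The same was true of Igha, the constant gene of IgA, at 62.4, 175.0 and 269.5 FPM in KO 1, KO 4 and KO 5, against 28.7, 157.7 and 134.9 FPM in WT 1, WT 2 and WT 4. KO 5 was also highest for Jchain, Igkc and Csf1r, so this does not tie the segments to Igha. Without WT 1, the lowest library was KO 4 for Ighv1-26 but KO 1 for Iglv1 and Igha. Igha made up 28.5% of the summed IgG and IgA constant genes in WT 1 and 49.6% to 91.7% in the other 5 libraries. Ighm, the constant gene of IgM, was higher than any of them at 665.2, 308.0 and 533.2 FPM in KO 1, KO 4 and KO 5, against 438.0, 456.1 and 445.8 FPM in WT 1, WT 2 and WT 4. The Ighv sum was 0.146 to 0.299 times Ighm. Per kb of exon Ighm averaged 252 FPM, above Igkc and Iglc1.

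Kappa usage was led by different segments in the 2 genotypes. Igkv5-39 led in all 3 WT libraries, whereas Igkv19-93 led in KO 1, Igkv6-23 in KO 4 and Igkv4-61 in KO 5. Igkv5-39 measured 5.2, 1.0 and 1.9 FPM in KO 1, KO 4 and KO 5, against 7.1, 8.0 and 7.6 FPM in WT 1, WT 2 and WT 4. Its usage was 9.04%, 4.72% and 2.18% in KO 1, KO 4 and KO 5, against 12.6%, 12.9% and 17.4% in WT 1, WT 2 and WT 4. The groups did not overlap on either measure. In WT it varied little, at 7.57 ± 0.451 FPM (SD, n = 3), while the Igkv sum ranged from 43.7 to 62.2 FPM. Igkv6-23, the leader in KO 4, was at only 1.9 FPM there. Igkv10-96 varied least of the 16 Igkv segments with a mean of at least 1, at 1.7 to 3.8 FPM in KO and 2.0 to 3.1 FPM in WT.

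**Figure D3:**
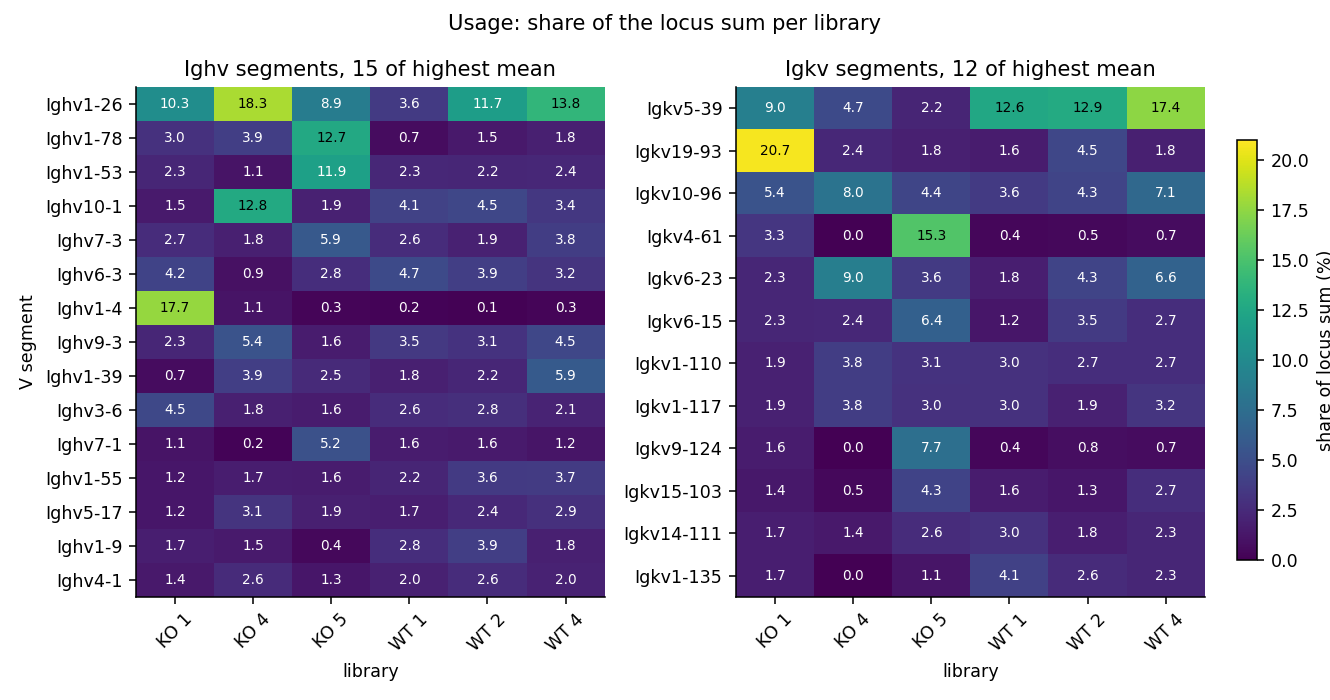
Share of the locus sum in percent (colour and printed number) for the 15 Ighv and 12 Igkv segments of highest mean (rows) in each library (columns, KO left of WT). Ighv1-26 is used in all libraries, Igkv5-39 has a higher share in every WT library than in any KO library, and Ighv1-4, Ighv1-78, Ighv1-53, Igkv19-93 and Igkv4-61 stand out in 1 KO library each.

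Libraries resembled each other only in part in their usage. Over the 27 Ighv segments with a mean of at least 1, the rank correlation of usage between 2 libraries ranged from 0.02 to 0.64 over the 15 pairs, with a median of 0.34. Over the 16 such Igkv segments it ranged from -0.31 to 0.73, with a median of 0.32. These are descriptions across segments, which share a library and a locus sum, and many values lie near 1 FPM. Single segments had their highest value in KO 5 in 24 of 45 cases, and their lowest in KO 4 alone in 23. Some of the 45, such as Igkv4-61 and Igkv9-124, reached a mean of at least 1 only through KO 5. The share over all genes was not computed, so nothing is read from these counts. Ighv9-3 varied least among the 45, between 2.2 and 3.4 FPM.

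A segment was counted as dominated by a library where that library held at least 50% of the sum of its 6 usage shares, with a value there of at least 5 FPM. This held for 6 of 348 segments, of which 2 were dominated by KO 1 and 4 by KO 5, and 0 by KO 4 or by a WT library. These 6 came in heavy and light chain sets within the same library. The share of all genes that a single library would dominate by a like rule was not computed. Nothing is thus read from the split of these counts between genotypes. The floor of 5 FPM is easier to reach in a library with a large V sum. At a floor of 2 FPM there were 9, with 8 in KO and 1 in WT (Igkv4-53 in WT 2, 58.0%, 2.9 FPM). Segments past 50% also occurred below 2 FPM, such as Igkv8-24 in KO 4 (1.2 FPM), Igkv13-85 in KO 5 (1.7 FPM) and Igkv4-57 in WT 4 (1.9 FPM). The count of 6 depends on KO 5, without which 2 remained, both of KO 1.

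In KO 1 the heavy chain segment was Ighv1-4 and the light chain segment Igkv19-93. Ighv1-4 measured 17.2, 0.6 and 0.5 FPM in KO 1, KO 4 and KO 5, against 0.2, 0.1 and 0.2 FPM in WT 1, WT 2 and WT 4. It made up 17.7% of the Ighv sum in KO 1 and at most 1.11% elsewhere. Igkv19-93 measured 11.9, 0.5 and 1.6 FPM in KO 1, KO 4 and KO 5, against 0.9, 2.8 and 0.8 FPM in WT 1, WT 2 and WT 4. Its usage of 20.7% in KO 1 was the highest of any Igkv segment in any library. Ighv1-7, the near copy of Ighv1-4, was at 0.4 FPM in KO 1. How fragments were divided between these copies was not tested.

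In KO 5 a pair of heavy and a pair of light chain segments stood out. Ighv1-78 measured 2.9, 2.1 and 20.2 FPM in KO 1, KO 4 and KO 5, against 0.6, 1.5 and 1.4 FPM in WT 1, WT 2 and WT 4. Ighv1-53 measured 2.2, 0.6 and 19.0 FPM in KO 1, KO 4 and KO 5, against 2.0, 2.3 and 1.8 FPM in WT 1, WT 2 and WT 4. Igkv4-61 was at 13.3 FPM in KO 5, at 1.9 and 0 FPM in KO 1 and KO 4, and between 0.2 and 0.3 FPM in WT. Igkv9-124 was at 6.7 FPM in KO 5, at 0.9 and 0 FPM in KO 1 and KO 4, and between 0.2 and 0.5 FPM in WT. Its near copy Igkv9-120 was at 2.2 FPM in KO 5. Ighv1-62 and Igkv4-54, the near copies of Ighv1-53 and Igkv4-61, were at 0 FPM there. How fragments were divided between these copies was not tested. Ighv1-77, which is 89.4% identical to Ighv1-78, was at 4.9 FPM in KO 5 and at most 0.5 FPM elsewhere. It was chosen for mention after its values were seen, and whether fragments of Ighv1-78 contributed to it was not tested. Just outside the rule lay Ighv7-1 (47.9% of its usage shares in KO 5, 8.3 FPM there) and Ighv10-1 (45.1% in KO 4, 6.9 FPM), and just inside it Ighv1-53 (53.7%) and Ighv1-78 (53.9%).

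**Figure D4:**
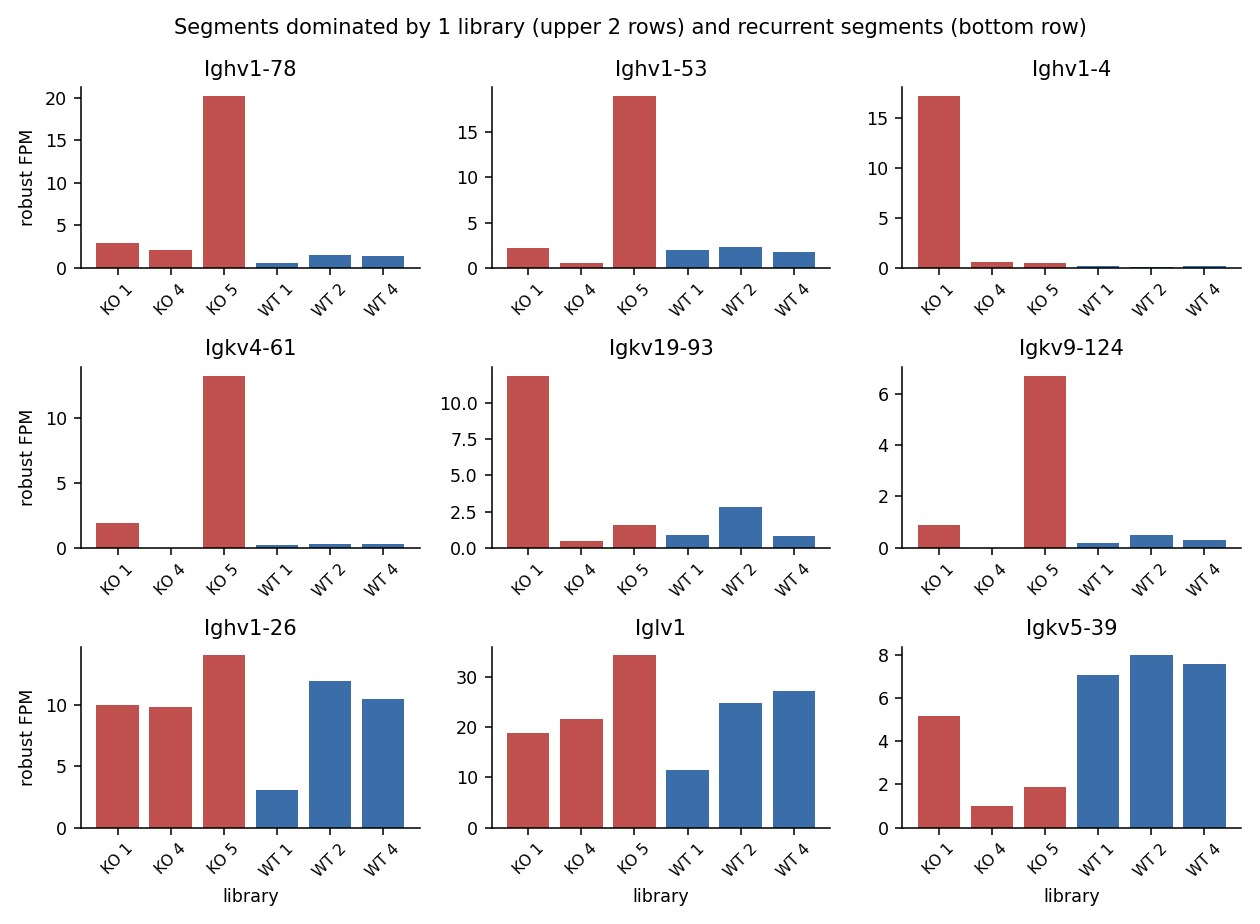
Robust FPM per library (bars from 0, each panel with its own scale) for the 6 segments dominated by 1 library and, in the bottom row, Ighv1-26, Iglv1 and Igkv5-39. KO 5 towers in 4 of the upper panels and KO 1 in 2, whereas Ighv1-26 and Iglv1 are present in all libraries and Igkv5-39 is lower in every KO library.

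The isotypes measured beside these segments differed between the libraries. KO 5 had the highest Ighg2c of all libraries, at 60 FPM against 29.5 and 3.7 FPM in KO 1 and KO 4 and 17.4 to 22.8 FPM in WT, and the highest Ighg2b at 43.8 FPM. Both genes encode IgG constant regions. Igha was also highest in KO 5, and above both of them there, at 269.5 FPM. Ighg1 and Ighg3 were instead highest in WT 1, at 9.9 and 12.4 FPM, against 2.0 and 6.1 FPM in KO 5. KO 1 had the highest Ighm. Whether a heavy chain segment, a light chain segment and an isotype came from the same cells cannot be told apart in bulk values per gene.

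Spread of usage was measured by the inverse Simpson number, which is the number of equally used segments that would give the same concentration. For Ighv it was 18.3, 15.9 and 19.2 in KO 1, KO 4 and KO 5, against 57.8, 31.4 and 25.0 in WT 1, WT 2 and WT 4, so heavy chain usage was more concentrated in every KO library than in any WT library. The 5 leading segments held 39.7%, 44.2% and 44.6% of the Ighv sum in KO 1, KO 4 and KO 5, against 19.5%, 28.0% and 32.5% in WT 1, WT 2 and WT 4. With the dominated segments left out, the number was 27.1, 14.4 and 25.9 in KO 1, KO 4 and KO 5, against 56.0, 29.7 and 23.4 in WT 1, WT 2 and WT 4, and the groups overlapped. The segments left out had been picked from these data for being high in KO 1 or KO 5. Their omission thus works toward overlap by construction, and nothing is read from it. For Igkv, the number over all segments was 15.2, 29.0 and 20.8 in KO 1, KO 4 and KO 5, against 34.0, 27.0 and 19.3 in WT 1, WT 2 and WT 4, and the groups overlapped. No test is given for these scores over the members.

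The broad usage in WT 1 went with its pseudogene values. Pseudogenes, which cannot encode a functional chain, held 0.720%, 2.77% and 0.251% of the Ighv sum in KO 1, KO 4 and KO 5, against 12.3%, 0.876% and 0.264% in WT 1, WT 2 and WT 4. Of the Igkv sum they held 0.870%, 7.55% and 0.230% in KO 1, KO 4 and KO 5, against 10.7%, 1.13% and 0% in WT 1, WT 2 and WT 4. In WT 1 148 of 185 Ighv segments were above 0, against 78 to 99 in the other libraries. Over the annotated genes only, the Ighv number was 18.1, 15.1 and 19.1 in KO 1, KO 4 and KO 5, against 45.6, 30.8 and 24.9 in WT 1, WT 2 and WT 4, and the groups still did not overlap. This also held without WT 1.

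**Figure D5:**
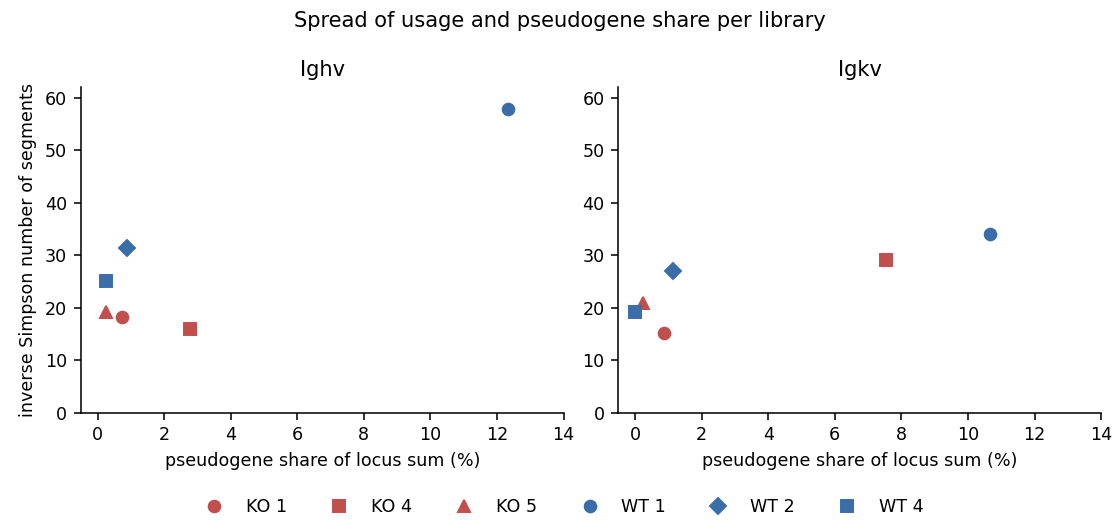
Inverse Simpson number of segments (y axis) against the share of pseudogenes in the locus sum in percent (x axis) for Ighv and Igkv, 1 point per library, KO in red and WT in blue. For Ighv the KO libraries lie between 15.9 and 19.2 and the WT libraries between 25.0 and 57.8, with WT 1 farthest to the right in both panels and KO 4 at 7.55% for Igkv.

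To compare genotypes segment by segment, genes with a mean of at least 1 were tested with limma across the whole table. This kept 45 V segments (27 Ighv, 16 Igkv and 2 Iglv), none of them a pseudogene. Of the remaining 303, 52 were at 0 in all libraries. Of the 45, 8 had a mean of at least 1 in KO alone and 4 in WT alone, so they passed only through the group where they were high, and counts over the 45 are descriptions. The test called 0 of the 45 (limma adjusted p = 1 for each), as it called 0 of 14944 genes (0%). It thus missed Prmt5 as well, the targeted gene, at 21.5 to 24.4 FPM in KO against 34.9 to 43.9 FPM in WT. The lack of calls is therefore not read as a lack of difference. At an unadjusted p under 0.05 there was 1 higher and 3 lower segments in KO, where 0.248% of all genes reached this in either direction. That share is smaller than the threshold itself would give with no differences, so the p-values ran high. The higher one, Ighv1-4, passed the filter only through KO 1, and one of the lower ones, Ighv1-75, only through WT. The median log2 change of the 45 was -0.09, with 19 positive, and that of all genes tested was 0.01.

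Igkv5-39 had the smallest p among the V segments. Its log2 change was -1.29 (SE 0.367, 95% interval -2.14 to -0.45, limma unadjusted p = 0.00805, adjusted p = 1). It was lower in 3 of 3 KO libraries, with changes of -0.50 in series 22 and -2.09 in series 24. A fit that replaced the series by the replicate number as a block called it, with a log2 change of -1.42 (limma adjusted p = 0.0314, where the other fits gave 0.652 to 1). That fit called 5 of 14944 genes. In it 159 genes reached an unadjusted limma p under 0.05, against 37 in the main fit. Whether the numbers pair the libraries was not established. KO 5 and WT 2 share their number with no library of the other genotype. The difference in the block fit thus rested on KO 1, KO 4, WT 1 and WT 4. Ighv1-39 came next among the lower ones, at 0.7, 2.1 and 4.0 FPM in KO 1, KO 4 and KO 5, against 1.6, 2.3 and 4.5 FPM in WT 1, WT 2 and WT 4, a log2 change of -0.78 (SE 0.317, limma adjusted p = 1) with groups that overlapped.

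The higher segments named for their p were those of KO 1. Ighv1-4 had a log2 change of 2.68, or 4.77 in series 22 and 0.58 in series 24. It was tested only because of its 17.2 FPM in KO 1, without which it fell below the filter, so its p is not given. Igkv19-93 had one of 1.34 (SE 0.613, limma adjusted p = 1), or 2.53 within series 22 and 0.16 within series 24. Ighv1-26 had one of 0.41 (SE 0.437, 95% interval -0.61 to 1.42, limma adjusted p = 1), which turned negative without WT 1.

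For 5 of the 45 segments the genotypes were fully separated. Ighv1-4 and Ighv1-78 were higher in every KO library, as were 1.09% of all genes. Outside KO 1, Ighv1-4 was at 0.6 and 0.5 FPM in KO, against at most 0.2 FPM in WT. Igkv5-39, Ighv9-3 and Ighv1-75 were lower in every KO library, as were 1.79% of all genes. Ighv1-4 and Ighv1-75 had passed the filter through a single genotype, so nothing is read from these counts. Ighv9-3 and Ighv1-75 are named because they fell in this count. Ighv9-3 measured 2.2, 2.9 and 2.5 FPM in KO 1, KO 4 and KO 5, against 3.0, 3.2 and 3.4 FPM in WT 1, WT 2 and WT 4. Ighv1-75 measured 0.2, 0.2 and 0.9 FPM in KO 1, KO 4 and KO 5, against 1.4, 2.9 and 1.0 FPM in WT 1, WT 2 and WT 4.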

How the data were processed

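Bulk RNA libraries (ribosomal RNA removed, stranded TruSeq, per the labels' protocols) gave 1 table of robust FPM, deposited by the authors and treated here as RPM, not as counts. Build GRCm38.p3 and the tools DESeq, DESeq2, featureCounts and STAR are listed in the submitters' processing notes, without versions or roles. Of 54624 rows, 92 were ERCC spike-ins, which were left out. Gene values summed to 857334 to 954014 per library, so sequencing depth is unknown and no counting interval is given. Another 6 columns matched no sample and were not used. Symbols, exon lengths and sequences came from GENCODE M21 (GRCm38), and 54409 of 54532 gene rows had a symbol. V segments with a mean of at least 1 have 347 to 461 bases of exon, so usage shares were not divided by length.

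Genes with a mean of at least 1 were fitted as log2(value + 0.5) with library series and genotype in limma 3.58.1 (R 4.3.3, mean-variance trend, two-sided), adjusted by Benjamini-Hochberg over 14944 genes and called below 0.05. The script was tested on simulated data. A log2(value + 0.5) change understates that of low genes. Sums, usage, dominance and V to constant ratios had no test. Correlations used exact two-sided permutation over 720 pairings. Sequence identity came from local alignments of at least 200 bases in Biopython 1.88. Figures used matplotlib 3.10.9.

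Named genes were the 3 of highest mean per locus, the leader per library and locus, dominated segments (up to 12), the 2 of smallest p in each direction, and genes of the marker lists (B cell, plasma cell, precursor and germinal centre B cell, constant region, CD4 T cell, other cells). Of 11 precursor and germinal centre genes, 4 reached 1 in every library, as did 5 of 8 markers of other cells and 10 of 12 constant genes. Members and lists were chosen with earlier results of these data known. The design text calls the samples biological replicates, and p-values measure the spread between them.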

Additional observations from a re-analysis of the deposited data

How the results depend on the processing

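Depth is unknown, values are rounded to 0.1 FPM, and the size of difference that could be detected was not tested. Without KO replicate 1, Ighv1-4 fell below the filter and could not be fitted. Pseudocount (0.1 and 1), low-value filter (absent, or at a mean of 5), series term, scaling, variance trend and each library left out in turn gave 0 called V segments. With a replicate block 1 was called, Igkv5-39 (limma adjusted p = 0.0314), where that fit called 5 of 14944 genes. Libraries that share a number had negatively correlated deviations from their group means (r = -0.16 for KO 1 and WT 1, -0.41 for KO 4 and WT 4). The series was not removed from these deviations, so they show no sign of pairing but cannot exclude it. The block leaves KO 5 and WT 2 out of the difference, since no library of the other genotype shares their number. Under the block the log2 difference was -0.16 for the Ighv sum, -0.51 for Igkv and 0.063 for Iglv, each within the spread between replicates. Leaving out 1 library gave log2 differences of -0.22 to 0.56 for Ighv, -0.54 to 0.48 for Igkv and -0.15 to 0.24 for Iglv, so the sign of each rests on single libraries. The count of dominated segments was 2 without KO replicate 5 and up to 8 without another library, and 4 to 9 under other thresholds, with 1 in a WT library at a minimum of 2 FPM. Of the correlations with Cd79a, r lay between 0.39 and 0.86 for Ighm, -0.034 and 0.55 for Igkc, and -0.51 and 0.096 for Jchain when 1 library was left out. Without WT replicate 1 the sign turned for Ighv1-26 (-0.014, up to 0.76 without another library) and for Iglv1 (-0.16, up to 0.30), and Iglv1 also turned with ERCC scaling (-0.13), which moved the median of all genes to -0.20, and without KO replicate 5 (-0.05). Use of annotated genes only, the omission of libraries from the dominance count and the values without dominated segments were chosen after seeing the data.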
